A study of Caenorhabditis elegans with 4 samples.

Results

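The genes described here are those for aminoacyl-tRNA synthetases, taken as every Caenorhabditis elegans gene whose symbol is a one-letter amino acid code followed by ars and the suffix -1 or -2. There were 33 such genes, 13 with the suffix -2 and 20 with the suffix -1, among 13685 genes tested. All 33 passed the filter on dim probes. Their transcript levels were compared between isp-1(qm150);ceh-23(ms23) animals, called the double mutant here, and isp-1(qm150) animals. The qm150 allele was thus shared by both genotypes. It affects the Rieske iron-sulfur subunit of respiratory complex III, which isp-1 encodes. The ms23 allele, present in the double mutant alone, lies in ceh-23, which encodes a homeodomain protein. Animals of both genotypes were whole mid-L4 larvae, synchronized and kept at 20 C on OP50 bacteria without further treatment. Each of the 4 arrays held the double mutant in one dye and isp-1 in the other. They came from 3 biological replicates, of which replicate 1 was hybridised in both dye orientations and averaged, so that n = 3 for every ratio.

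Aminoacyl-tRNA synthetases join each amino acid to its tRNA and so supply every round of translation. Mitochondria translate the few proteins encoded by their own genome, which are subunits of the respiratory chain and ATP synthase, and for many amino acids a separate nuclear gene encodes the mitochondrial enzyme. By the usual naming the suffix -2 marks the mitochondrial and -1 the cytosolic enzyme. The suffix is not a safe guide in this species: aars-2 is known as the cytosolic and aars-1 as the mitochondrial alanyl enzyme, and vars-1 as the mitochondrial valyl enzyme, whose cytosolic counterpart is glp-4. The suffix classes were kept, and a grouping by compartment that moved only aars-1, aars-2 and vars-1 was set beside them. For 7 of the suffix -1 genes (gars-1, hars-1, kars-1, qars-1, tars-1, vars-1 and wars-1) the set held no -2 gene. In many animals a single gene for glycine, lysine or histidine supplies both compartments. The gene cars-2 is annotated as a pseudogene and lies next to cars-1 on chromosome I in the RefSeq annotation of WBcel235. Whether its probes also bind cars-1 transcripts was not tested.

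Across the arrays the median spot signal was 152 to 198 in the double mutant and 109.5 to 258.5 in isp-1, and 62.4% to 77.5% of spots in the double mutant and 62.2% to 78.4% in isp-1 were well above background. The single ceh-23 probe had log2 ratios of 0.02 and -0.05 in replicate 1, -0.20 in replicate 2 and -0.06 in replicate 3, and passed the scanner's test against background on 2 arrays in either genotype. Where it lies relative to the ms23 lesion is not given in the sources used here, so it does not check the genotypes. The 16 germline and oocyte markers had a median log2 ratio of -1.02, and 10 of them were lower in the double mutant at limma's adjusted p of 0.05. The 24 measured sperm markers had a median of -1.20 (10 lower at that threshold), and the 6 yolk genes, which are transcribed in the intestine, -1.87 (5 lower). Other tissue markers had medians above 0, at 0.68 for 4 pharynx, 0.32 for 4 body wall muscle, 0.20 for 5 intestine and 0.15 for 3 neuron markers, or below it, at -0.12 for 3 hypodermis markers, and none of these passed the adjusted threshold. At an unadjusted p of 0.05 in limma, 13.6% of all genes were higher and 22.3% lower. All 4 pharynx markers, 2 of body wall muscle and 1 each of intestine, neuron and hypodermis were higher at that level. All 16 germline and oocyte markers, 24 sperm markers and 6 yolk genes were lower. In whole animals fewer cells of a type and less RNA per cell cannot be told apart.

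The synthetase genes had signals well above background, which does not bear on the agreement between arrays given below. Of their 106 probes all were kept, all were well above background in both genotypes on all 4 arrays, and none was saturated. Their number per gene ranged from 1 (9 genes) to 13 (kars-1 and pars-2), and 2 spots were left out as outliers. The number of arrays limits the precision of every ratio.

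No synthetase gene passed limma's adjusted p of 0.05, where 3.37% of all genes did (0.775% higher and 2.59% lower in the double mutant). Mean log2 ratios ran from -0.38 for rars-2 to 0.22 for lars-1, with a median of -0.004, against -0.01 over all genes. Of the 33 genes, 14 had a mean ratio above 0 and 19 below, against 6609 above and 7076 below over all 13685 genes. Of the synthetase genes 21 lay within 0.1 of 0, and only rars-2, kars-1 and lars-1 lay beyond 0.2. The shares of all genes within these limits were not computed. The median size of the log2 ratio, without its sign, was 0.07 for the synthetases and 0.21 for all genes. At an unadjusted p of 0.05 in limma, 1 of 33 synthetase genes passed (rars-2, lower in the double mutant), against 35.9% of all genes (13.6% higher and 22.3% lower). None differed by 1.5-fold in its mean ratio, which 9.59% of all genes did, 9.27% with the same sign on every array.

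**Figure D1:**
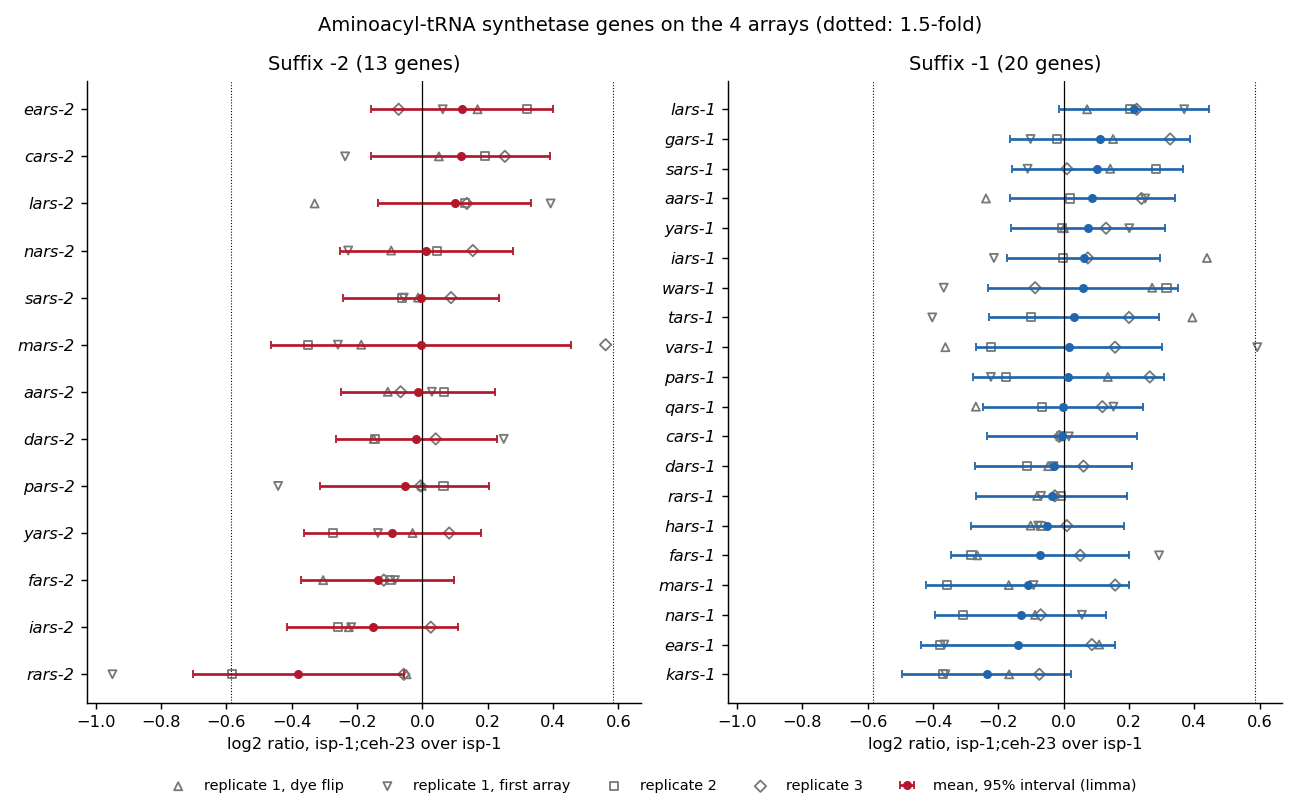
Log2 ratios of the double mutant over isp-1 for the 13 suffix -2 and 20 suffix -1 genes, with the 4 arrays as open symbols and the mean of the 3 replicates with its limma 95% interval as filled symbols. Means lie between -0.38 and 0.22, and only the interval of rars-2 crosses the dotted 1.5-fold line or excludes 0.

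For the processing used here, the intervals say how large a difference could have gone unseen. The limma 95% interval of the log2 ratio, not adjusted for the number of genes, had a half-width of 0.23 to 0.46 with a median of 0.26. For 32 of the 33 genes the interval lay wholly inside 1.5-fold in either direction, as it did for 65% of all genes. The exception was rars-2. Intervals under the other settings of the closing section, in which ratios and adjusted p-values moved, are not given. The spread between replicates was close to that of other genes, with a median SD of 0.15 for the synthetases and 0.18 over all genes.

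**Figure D2:**
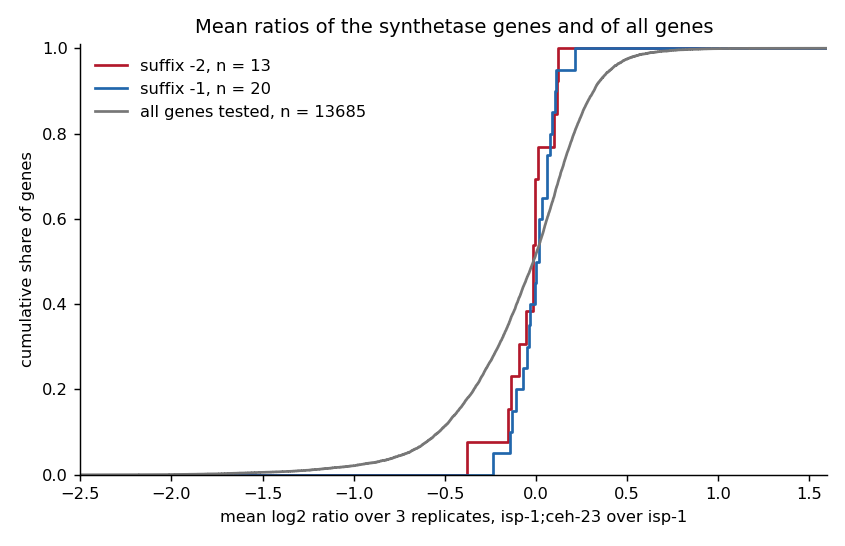
Cumulative share of genes (vertical axis) by mean log2 ratio of the double mutant over isp-1 (horizontal axis) for suffix -2, suffix -1 and all 13685 genes. The synthetase curves climb steeply around 0, with medians of -0.01 and 0.01, while the curve of all genes spreads from -2.44 to 1.56.

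The lowest ratio belonged to rars-2 (C29H12.1, chromosome II), the gene for the arginyl enzyme with the mitochondrial suffix. On the normalised log2 scale its single probe had signals of 10.89, 10.58, 10.63 and 10.69 in the double mutant, against 10.94, 11.53, 11.21 and 10.74 in isp-1, on the dye-flip and first arrays of replicate 1 and in replicates 2 and 3. The log2 ratios were -0.05, -0.95, -0.58 and -0.06. The double mutant was thus the lower genotype on every array, though the first array of replicate 1 and replicate 2 carried nearly all of the difference, and the range of its signals overlapped that of isp-1. The mean was -0.38 (SD 0.28, n = 3, 95% interval -0.70 to -0.06), a 1.3-fold lower level with a limma adjusted p of 0.105 and an unadjusted p of 0.0282. Without replicate 3 the mean was -0.54 (limma adjusted p = 0.00286), a setting in which 5938 of 13712 genes passed. With dye as a covariate, a fit with 1 residual degree of freedom, its adjusted p was 0.0341, and 4151 of 13685 genes passed. Over all 18 other settings the adjusted p of rars-2 ranged from 0.00286 to 0.522. The ratio was -0.21 from the scanner's log ratios and -0.46 with median centring. The cytosolic arginyl gene rars-1 (F26F4.10) had -0.08, -0.07, -0.01 and -0.03, a mean of -0.04 (SD 0.03), although its 8 probes ranged from -0.20 to 0.20.

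The lysyl enzyme gene kars-1 (T02G5.9, chromosome II), the only lysyl gene of the set, was also lower on all 4 arrays. Its signals were 11.28, 11.09, 10.58 and 10.31 in the double mutant, against 11.45, 11.45, 10.94 and 10.38 in isp-1, in the same order of arrays. The log2 ratios were -0.17, -0.36, -0.37 and -0.07, with a mean of -0.24 (SD 0.15, n = 3, 95% interval -0.50 to 0.02, limma adjusted p = 0.166). Of its 13 probes, the 12 with a value in every replicate all had negative means, the lowest at -0.28 and the highest at -0.16. These probes read the same transcript in the same samples, so they bear on the error of the probes and not on the spread between animals. Without replicate 3 the mean was -0.32 and passed in limma (adjusted p = 0.0382, against a range up to 0.605 over the other settings). In that setting 5938 of 13712 genes passed. Replicate 3 was also the replicate with the smallest difference in the germline and oocyte markers, whose medians were -1.16, -1.37 and -0.59 in replicates 1, 2 and 3, with all 16 lower in the double mutant. Their part in the rars-2 and kars-1 ratios was not tested.

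The highest ratio belonged to lars-1 (R74.1, chromosome III), the gene for the cytosolic leucyl enzyme. Its single probe had normalised log2 signals of 12.78, 12.82, 12.89 and 12.94 in the double mutant, against 12.71, 12.45, 12.68 and 12.72 in isp-1. Every double mutant signal was above every isp-1 signal, though narrowly, with the lowest at 12.78 against the highest at 12.72. Both arrays of replicate 1 carried the same biological replicate, and the share of all genes separated in this way was not computed. The log2 ratios were 0.07, 0.37, 0.20 and 0.22, with a mean of 0.22 (SD 0.01, n = 3, 95% interval -0.01 to 0.45), a 1.16-fold higher level that did not pass (limma adjusted p = 0.157). The small SD rests on averaging the arrays of replicate 1, which differed from each other more than the replicates did. The mitochondrial leucyl gene lars-2 (ZK524.3) had -0.33, 0.39, 0.13 and 0.14, with a mean of 0.10 (SD 0.06).

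Among the remaining genes with the mitochondrial suffix, mean log2 ratios lay between -0.15 and 0.12. The isoleucyl gene iars-2 had -0.23, -0.22, -0.26 and 0.03, with a mean of -0.15 (SD 0.15), so replicate 3 stood apart from the rest. The phenylalanyl gene fars-2 was negative on all 4 arrays, at -0.30, -0.08, -0.10 and -0.12, with a mean of -0.14 (SD 0.05, limma adjusted p = 0.333). The methionyl gene mars-2 varied most between replicates: -0.19 and -0.26 in replicate 1, -0.35 in replicate 2 and 0.56 in replicate 3 gave a mean of -0.004 (SD 0.49). At the other end, the glutamyl gene ears-2 had a mean of 0.12 (SD 0.20) and the pseudogene cars-2 0.12 (SD 0.18), with all 5 of its probes positive on average. The tyrosyl gene yars-2 had a mean of -0.09 (SD 0.18) and the prolyl gene pars-2 -0.05 (SD 0.15). The aspartyl (dars-2), alanyl (aars-2), seryl (sars-2) and asparaginyl (nars-2) genes lay within 0.02 of 0. The mitochondrial enzymes that carry the suffix -1, aars-1 and vars-1, had means of 0.09 (SD 0.13) and 0.02 (SD 0.21).

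Among the remaining genes with the cytosolic suffix, mean log2 ratios lay between -0.14 and 0.11. The glutamyl gene ears-1 had 0.11, -0.37, -0.38 and 0.09 on the 4 arrays and a mean of -0.14 (SD 0.23). The asparaginyl gene nars-1 had a mean of -0.13 (SD 0.16), the methionyl gene mars-1 -0.11 (SD 0.26) and fars-1, for the alpha subunit of the phenylalanyl enzyme, -0.07 (SD 0.18). For each of these the SD over replicates was larger than the mean. The glycyl gene gars-1 stood at 0.11 (SD 0.19) and the seryl gene sars-1 at 0.10 (SD 0.16). The steadiest gene was cars-1, for the cysteinyl enzyme, with -0.01, 0.02, -0.01 and -0.01 on the 4 arrays. Each value is the mean of 6 probes, whose own means ranged from -0.07 to 0.07. On single arrays the probes differed more, with -0.38 and 0.30 for different probes on the first array of replicate 1. The steadiness is thus that of an average over probes of opposite sign. The histidyl (hars-1), aspartyl (dars-1), glutaminyl (qars-1), prolyl (pars-1), threonyl (tars-1), isoleucyl (iars-1), tryptophanyl (wars-1) and tyrosyl (yars-1) genes all had means between -0.05 and 0.08. The gene glp-4, outside the symbol rule but known as the cytosolic valyl enzyme, had 0.42, -0.01, 0.14 and 0.09 and a mean of 0.14 (SD 0.06, limma adjusted p = 0.314).

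The classes had medians close to each other. The median log2 ratio was -0.01 for the 13 suffix -2 genes and 0.01 for the 20 suffix -1 genes. In replicates 1, 2 and 3 the median was -0.09, -0.06 and 0.04 for suffix -2, against -0.01, -0.07 and 0.08 for suffix -1. The difference of the class medians, -2 minus -1, was -0.08, 0.006 and -0.04, which averaged -0.04 (SD 0.04, n = 3). Its sign was not the same in every replicate. A sign permutation over 3 replicates cannot give a two-sided exact p below 0.25, so no test was made. Grouped by compartment, the 14 genes counted as mitochondrial had a median of -0.004 and the 19 counted as cytosolic -0.006. Their difference in the replicates averaged -0.01 (SD 0.04). This grouping counted gars-1, hars-1 and kars-1 as cytosolic only and the pseudogene cars-2 as mitochondrial. The 7 suffix -1 genes without a -2 gene had a median of 0.02.

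Within a single amino acid the genes could be set against each other for 13 pairs. The -2 gene had the lower ratio in 8 pairs and the higher in 5, and in 4 pairs the difference had the same sign in all 3 replicates. In each of these 4 the -2 gene was the lower. The share of such pairs among other genes was not computed. For arginine (rars-2 minus rars-1) the difference was -0.42, -0.57 and -0.03 in replicates 1, 2 and 3, with a mean of -0.34 (SD 0.28). For isoleucine (iars-2 minus iars-1) it was -0.33, -0.26 and -0.05, with a mean of -0.21 (SD 0.15). For tyrosine (yars-2 minus yars-1) the mean was -0.17 (SD 0.11), and for leucine (lars-2 minus lars-1) -0.12 (SD 0.06). In replicate 1 the sign for arginine and leucine rests on averaging its arrays. On the dye-flip array rars-2 had -0.05 and rars-1 -0.08, and on the first array lars-2 had 0.39 and lars-1 0.37. The widest pair in the other direction was glutamate (ears-2 minus ears-1), at 0.24, 0.70 and -0.16, with a mean of 0.26 (SD 0.43). In the other 9 pairs the SD over replicates was larger than the mean difference, and the median over the 13 means was -0.07. For alanine the suffixes run against the known compartments, and the difference (aars-2 minus aars-1) was -0.10 (SD 0.18).

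**Figure D3:**
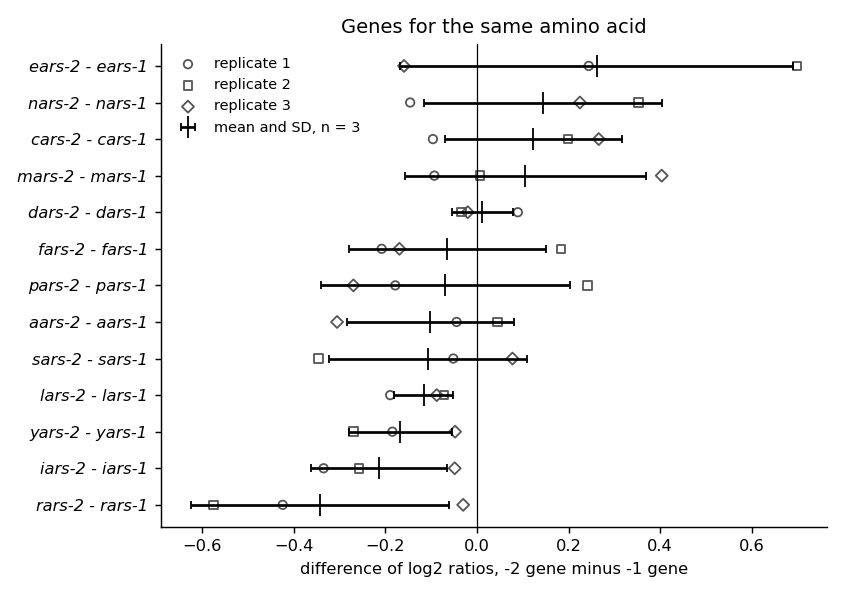
Difference of the log2 ratios of the -2 gene and the -1 gene for each of 13 amino acids (horizontal axis), in each replicate (open symbols) and as mean with SD (n = 3). The means run from -0.34 for arginine at the bottom to 0.26 for glutamate at the top, and 9 of the 13 SD bars cross 0.

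The arrays of replicate 1, which carried the same biological replicate with the dyes exchanged, differed from each other in many synthetase genes by more than the mean ratio. On the dye-flip and first arrays 17 of the 33 genes had ratios of opposite sign (51.5%), against 33.1% of all genes. The valyl gene vars-1 had -0.36 on the dye-flip array and 0.59 on the first array, and the threonyl gene tars-1 had 0.39 and -0.40. Across the 33 genes the correlation between these arrays was -0.43, and across all 13685 genes it was 0.67. Both are descriptions over genes that share arrays and dyes. As a median over genes, the difference between these arrays divided by 2 had a size of 0.13 for the synthetases, against 0.07 for their mean ratios. Over all genes it was 0.16, against 0.21 for the mean ratios.

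Replicates 2 and 3 were also run in opposite orientations, replicate 2 in that of the dye-flip array and replicate 3 in that of the first array. Their ratios followed the orientation for vars-1 (-0.22 and 0.16) but not for tars-1 (-0.10 and 0.20). Over the 33 genes the difference between the arrays of replicate 1 had a correlation of 0.01 with the difference between replicates 2 and 3, and over all genes 0.19. The part of the dyes in the spread of a gene cannot be told apart from the other differences between arrays. A like sign on every array was found for 5 synthetase genes (15.2%), against 46.2% of all genes. Of these, rars-2, kars-1, fars-2 and rars-1 were lower (25.3% of all genes) and lars-1 was higher in the double mutant (20.9% of all genes). The like sign of rars-1 is that of an average over 8 probes, of which 5 had negative and 3 positive means.

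**Figure D4:**
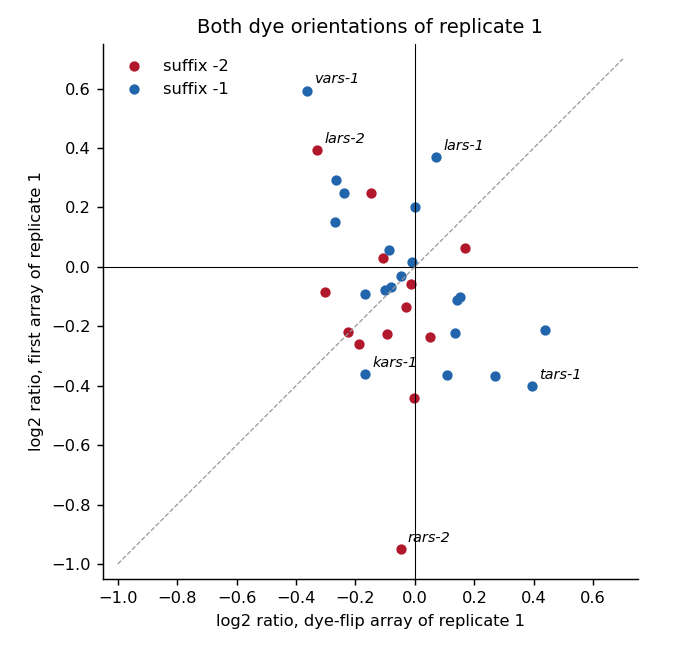
Log2 ratios of the double mutant over isp-1 of the 33 genes on the dye-flip array (horizontal axis) and the first array (vertical axis) of replicate 1; the dashed line marks equal ratios. Points such as vars-1 (-0.36 and 0.59) and tars-1 (0.39 and -0.40) lie across the line, in quadrants of opposite sign.

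None of the genes listed as working beside the synthetases passed limma's adjusted p of 0.05. The 7 cytosolic partners were fars-3, for the beta subunit of the phenylalanyl enzyme, and genes of the elongation factors that bring charged tRNA to the ribosome or move it along. Their median log2 ratio was 0.03, and fars-3 had 0.03 (SD 0.02). The elongation factor gene eef-1A.2 had 0.27, 0.21, 0.42 and 0.16 on the 4 arrays, with a mean of 0.28 (SD 0.13, limma adjusted p = 0.121), and eef-2 had 0.10 (SD 0.05). All 5 mitochondrial elongation and recycling factor genes had positive mean ratios, with a median of 0.16. Only 2 of the 5 (40%) had a like sign on every array, against 46.2% of all genes. The gene gfm-1, for mitochondrial elongation factor G, had -0.01, 0.33, 0.29 and 0.54. Its mean was 0.33 (SD 0.20, limma adjusted p = 0.103). The mitochondrial elongation factor Tu gene tufm-1 had 0.16, 0.39, 0.55 and 0.15 and a mean of 0.32 (SD 0.20, limma adjusted p = 0.11). At an unadjusted p of 0.05, eef-1A.2, gfm-1 and tufm-1 passed in limma, as 13.6% of all genes did in this direction. The mean ratio of each of the 3 was above that of every synthetase gene. Of the 4 genes listed for sensing of amino acid shortage, 3 were measured. The kinase gene gcn-2 had a mean of -0.07 (SD 0.22), and impt-1, whose product opposes that kinase in other species, had -0.54, -0.28, -0.50 and -0.01 with a mean of -0.31 (SD 0.26, limma adjusted p = 0.144).

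Ribosomal protein genes, the other large part of the translation machinery, had none past the adjusted threshold. The 68 mitochondrial ribosomal protein genes had a median of 0.09, with 51 above 0 and 17 below. Over all genes 6609 were above 0 and 7076 below. At an unadjusted p of 0.05 in limma 2 were higher (mrpl-41 at 0.29 and mrps-33 at 0.25). This is 2.94%, against 13.6% of all genes in that direction. The 77 cytosolic ribosomal protein genes had a median of 0.02. At that level 2 were higher and 2 lower (5.19%, against 35.9% of all genes), among them rpl-23A.1 at 0.28 and rpl-42 at -0.41. Per replicate the medians of these families lay between -0.02 and 0.10.

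**Figure D5:**
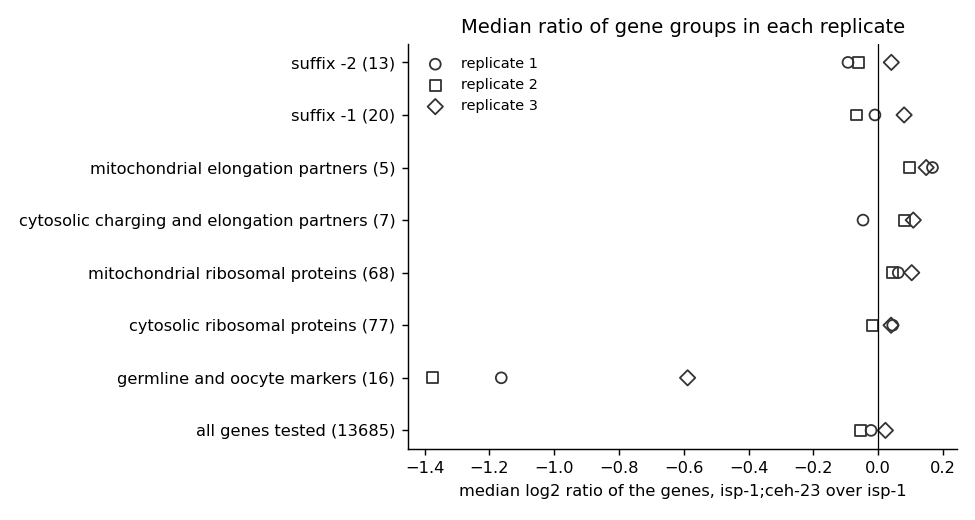
Median log2 ratio of the double mutant over isp-1 (horizontal axis) in each replicate for groups of genes, with the number of genes in brackets. The synthetase classes lie between -0.09 and 0.08 and the 5 mitochondrial elongation genes between 0.10 and 0.17, while the 16 germline and oocyte markers lie between -1.37 and -0.59.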

How the data were processed

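Per the labels, cRNA amplified from 100 ng of total RNA was labelled with Cy3 or Cy5. The authors scanned the arrays with Agilent Feature Extraction 10.5.1.1, and the design's genome build is ce4, per the file headers. The deposited files hold median intensity values of each spot and its local background, unnormalized, other columns with flags of 0 or 1, and the scanner's log10 ratio of Cy5 to Cy3 after its own correction. The deposited series table repeats that log10 ratio.

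These intensities were corrected for background with normexp (offset 50) in limma 3.58.1, under R 4.3.3. Ratios were normalised by loess, with control and outlier spots at weight 0, and given the sign of double mutant over isp-1 from the dyes in the labels. Outlier spots were left out. A probe had to stand well above background in all 3 replicates of at least 1 genotype (26248 of 43603 did). Probes were named through the RefSeq table of WBcel235 and averaged per gene. The 3 replicate values were tested two-sided against 0 (lmFit, eBayes), and p-values were adjusted by Benjamini-Hochberg over 13685 genes. Normalised signals of each genotype come from loess followed by quantile scaling of average intensities. All member genes are named; of other lists, at most the 2 genes with the smallest p and those a result turns on (glp-4 and fars-3 were added). The members and lists were chosen with earlier results of these data known. The fit was tested on simulated data. The 3 samples of a genotype are labelled as biological replicates. Alternatives are listed in the closing section. The planned dye fit with replicate 1 as a block could not be made, so dye was a covariate on the 3 replicate values. Both arrays of replicate 1 shared a slide, as did replicates 2 and 3.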

Additional observations from a re-analysis of the deposited data

How the results depend on the processing

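In limma, no synthetase gene passed the adjusted threshold under 16 of 18 other settings. With dye as a covariate 1 did (rars-2), and when 1 replicate was left out 0 to 2 did (rars-2 and kars-1 without replicate 3). At an unadjusted p of 0.05 the number was 0 from the scanner's log ratios, the series table, median centring or the dye-flip array of replicate 1 alone, 3 without a filter or with dye as a covariate, and 0 to 4 with 1 replicate left out. Of the 33 genes, 13 kept the sign of their ratio in all 18 settings, and sars-1 in the 17 that measured it (not with the brightest probe). The class medians and their difference moved by less than their SD over replicates in every setting, also by compartment and without the 7 unpaired genes. The count over all genes, 461 (106 higher and 355 lower), was 1734 from the scanner's log ratios (758 higher and 976 lower), 1736 from the series table (759 higher and 977 lower), 2 without background correction, 1485 with an offset of 0, 0 with median centring (1476 at an unadjusted p of 0.05 in limma), 1 without a filter, 749 with a strict filter, 1 with outlier spots kept, 977 with the brightest probe, 4151 with dye as a covariate, 733 and 777 with the dye-flip or first array of replicate 1 alone, 1264 with slide as a block, and 1 to 5938 with 1 replicate left out. The cause of these changes was not tested. Quantile scaling of average intensities leaves ratios as they are. No separate paired analysis was made, because each ratio already sets both genotypes of a replicate against each other on the same array.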

Other observations

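Other groupings of the synthetase genes, chosen after their ratios were known, are given as a description with no test. The enzymes fall into classes with unrelated catalytic folds: the 17 genes of class I had a median log2 ratio of -0.002 and the 16 of class II -0.02. The enzymes for 9 amino acids form a complex in the mammalian cytosol, and the 9 corresponding worm genes with the suffix -1 had a median of -0.03 (6 lower and 3 higher), against 0.03 for the other 11 genes with that suffix. By chromosome, the 11 genes on I, 4 on II, 6 on III, 8 on IV and 4 on V had medians of -0.01, -0.10, 0.01, -0.003 and -0.001. Chromosome II, with the lowest median, holds both rars-2 and kars-1, and its other 2 genes had ratios above 0.

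Probes of a gene could disagree. Of the 24 genes on several probes, 16 had probes of one sign and 8 of both. The widest spread was that of the 8 rars-1 probes, whose means differed by up to 0.39, followed by the pair of wars-1 probes at -0.06 and 0.18. No gene had probes past 1.5-fold in opposite directions.

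Replicates 1 and 2 resembled each other more than replicate 3 did over the 33 genes, with correlations of 0.56 between replicates 1 and 2, 0.15 between 1 and 3, and -0.07 between 2 and 3, although replicates 2 and 3 shared a slide. Over all genes these were 0.85, 0.63 and 0.55. They are descriptions across genes, which are not independent.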
